A study of Mus musculus with 9 samples.

Results

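Normal mammary fibroblasts kept for 5 days with carcinoma cells were compared with the same kind of culture at 3 days. The comparison takes all 6 co-culture libraries of the 9 in the series, 3 at each day. The cells came from the mammary fat pad of 12-week-old female BALB/c mice, were given 1 week on collagen to recover, and were then overlaid with 4T1-GFP cells, a BALB/c mammary carcinoma line that carries green fluorescent protein (GFP). They were separated by sorting for cells that lacked GFP and carried podoplanin (PDPN), and their RNA was sequenced from the 3′ end. The other 3 libraries, of fibroblasts grown alone for 5 days, shared the strain, sex, age, recovery and sort. They are given below as a reference level, and since no monoculture was sampled at 3 days, time spent beside carcinoma cells cannot be told apart from time in culture.

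Fibroblasts make and remodel the connective tissue around epithelium. Beside carcinoma cells they can take on states marked by secretion of chemokines and acute-phase proteins, by contractile and matrix genes, or by stress responses. ATF4 is a transcription factor that is translated more when amino acids are short or misfolded proteins build up, and it turns on genes for amino acid uptake and synthesis. SREBP2 is a membrane-bound factor that turns on cholesterol synthesis when sterols are low, and HIF factors turn on glycolysis when oxygen is low.

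The values are normalised read counts. Reads recovered from them numbered 1048471 to 2579766 per library at 3 days and 1459381 to 1987168 at 5 days. The first principal component of the 6 co-culture libraries held 39.3% of the variance and separated the days, and the next held 24.3%. Fibroblast markers summed to between 60358 and 83567 in the 6 libraries and Pdpn itself was at 213.3 to 388.4, so both were present at both days. Col1a1, Sparc and Col1a2 carry most of that sum: of its 14 markers 11 had negative changes, Dcn, Pdgfra and Thy1 were called lower at 5 days and Vim higher. Thy1, a surface glycoprotein, was at 1758.6, 1571.8 and 1303.6 and then 923.6, 927.7 and 941.3, a call lost under 4 alternatives. The 21 epithelial and carcinoma markers in the table summed to 1191 to 1379 at 3 days and 1172 to 1631 at 5 days, against 64.1 to 93.7 in monoculture, and the sums overlapped between days. Single markers differed: Lcn2, which is also on the NF-kappa B and acute-phase lists below, was called lower (269.0 to 101.0 on average). Without passing the test, Krt8, Krt19 and Wfdc2 were higher in every 5-day library and Krt14 was lower in every 5-day library. Of the 19 markers tested, 10 had positive and 9 negative changes. Among the 21 markers Epcam averaged 20.0 at 3 days and 18.9 at 5 days. How far RNA of carcinoma cells adds to the co-culture values of other genes was not tested. The 11 macrophage and monocyte markers summed to 133 to 414 at 3 days and 85.9 to 185 at 5 days, with Csf1r the 1 of 9 tested that was called, lower at 5 days, and Adgre1 and Ptprc not among the genes listed. The 3 endothelial markers summed to 50.7 to 64.7 and 37.2 to 38.7, lower at 5 days without overlap, and none of them was called. No lymphocyte or erythroid marker was listed.

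**Figure D1:**
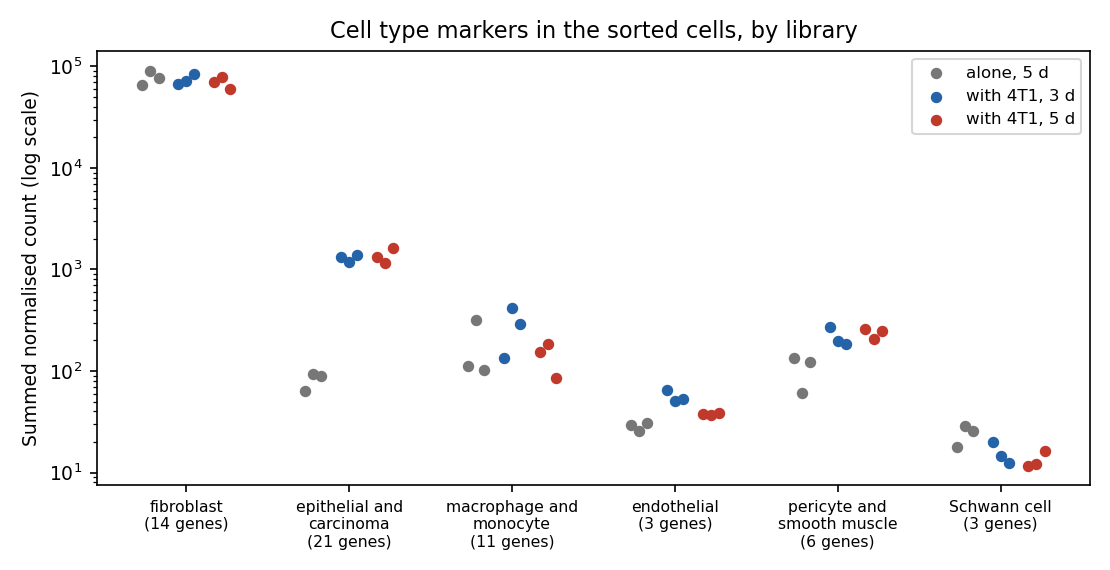
Summed normalised counts (log axis) of the cell type markers with at least 3 genes in the table, each point 1 library. Epithelial and carcinoma markers sit near 1200 to 1600 in both co-culture groups and below 100 in monoculture, while the fibroblast sum lies far above all others in every library.

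Of 10639 genes tested, 340 (3.20%) were called higher and 395 (3.71%) lower at 5 days, 6.91% in all, with limma on log2(value + 1) at a Benjamini-Hochberg adjusted p below 0.05. At least 2-fold on that scale were 178 of the higher genes and 303 of the lower genes. In 729 of the 735 called genes the 3 libraries of 5 days lay wholly to 1 side of the 3 libraries of 3 days, which held for 24.6% of all tested genes. Call and overlap come from the same values, so the lack of overlap in called genes is description and no separate support. Bulk RNA does not tell fewer cells of a kind from less RNA per cell, and nothing in the labels says whether replicates were separate cultures or animals, so p-values measure the spread between these libraries. Counts moved by more than 1.5 times without 1 library: genes called higher fell to 144 without the 3-day replicate 2, to 148 without the 5-day replicate 2, to 174 without the 5-day replicate 1 and to 199 without the 5-day replicate 3, and genes called lower fell to 179 without the 3-day replicate 2 and to 259 without the 5-day replicate 3.

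**Figure D2:**
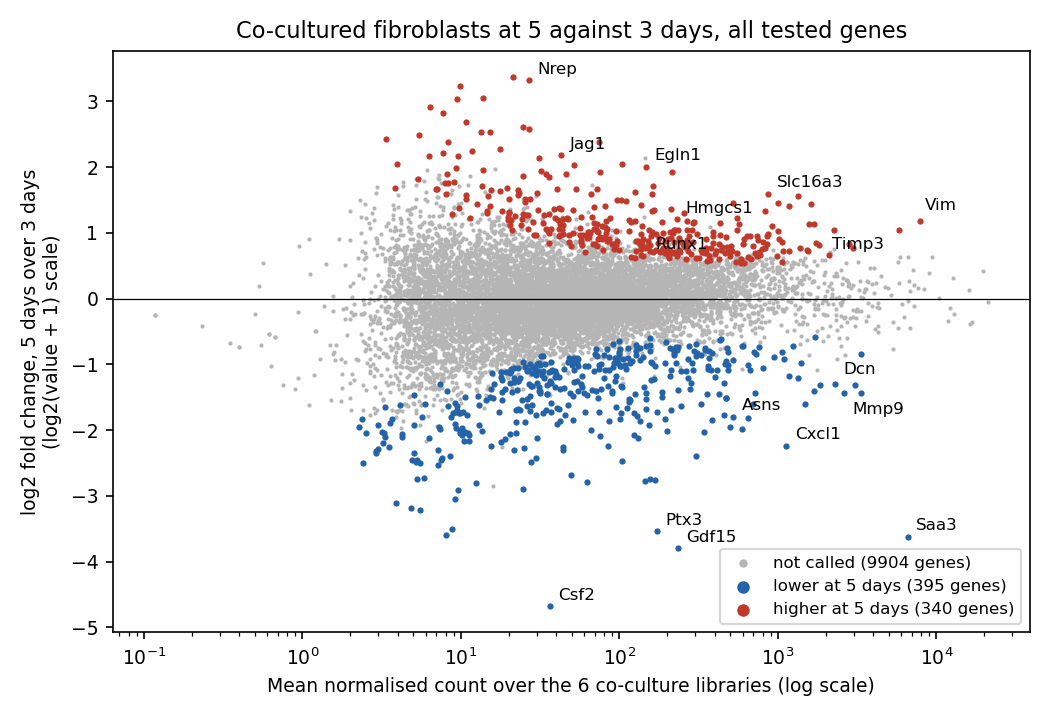
The log2 fold change of each tested gene at 5 against 3 days, against its mean normalised count over the 6 co-culture libraries (log axis). The 340 genes called higher are red and the 395 called lower are blue, and Csf2, Gdf15, Saa3 and Ptx3 lie furthest below 0 among the named genes.

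Falls were larger than rises. The largest fall was that of Csf2 (chromosome 11, 54247271 to 54249667, minus strand), which encodes the growth factor GM-CSF: its normalised counts were 112.9, 34.1 and 65.4 at 3 days and 1.8, 4.7 and 0.0 at 5 days. Monoculture libraries held at most 0.6, so Csf2 was high in the 3-day libraries and near the lowest measurable level in the others. Whether this RNA came from fibroblasts or from carcinoma cells was not tested. Gdf15 (chromosome 8, 70629393 to 70632456, minus strand), a secreted stress-induced member of the TGF-beta family, went from 501.5, 385.7 and 418.8 to 31.4, 27.0 and 32.5. That is 14.4 times lower (log2 fold change -3.80, SE 0.24, limma adjusted p = 5e-07). The groups did not overlap, and the 5-day values lay below the 45.2 to 89.1 of monoculture too. Rnd1, which encodes a small GTPase that loosens the actin cytoskeleton, fell from 254.8 ± 49.5 to 36.1 ± 1.85 (SD, n = 3), and Pamr1 from 44.4 ± 7.06 to 5.13 ± 1.36. The secreted carbonic anhydrase gene Car6 fell from 272.3 ± 27.9 to 41.3 ± 13.3.

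Among the largest rises was Jag1 (chromosome 2, 137081456 to 137116644, minus strand), a membrane ligand of Notch receptors. It stood at 13.3, 13.2 and 18.1 at 3 days and at 85.4, 68.9 and 58.7 at 5 days (4.78 times higher, log2 fold change 2.18, SE 0.28, limma adjusted p = 0.00025). Every 5-day library was above every 3-day library, and monoculture held 6.7 to 8.4. Akr1c18, which encodes a progesterone-degrading dehydrogenase, rose from 0.0, 5.6 and 7.0 to 43.1, 40.0 and 31.2. Nrep rose from 4.13 ± 1.27 to 49.9 ± 9.86, and Cmklr1, the receptor of the chemoattractant chemerin, from 6.43 ± 2.73 to 42.9 ± 11.2 (SD, n = 3). Gpbar1, a bile acid receptor gene, rose from 7.70 ± 4.90 to 46.4 ± 3.62 and the carbonic anhydrase gene Car2 from 41.1 ± 14.0 to 167.0 ± 16.4. These genes belong to no 1 pathway list, and each kept its call under every alternative that gave it a value, 18 for Akr1c18, Cmklr1 and Gpbar1 and 19 for the others.

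The clearest group of falls was that of genes of the integrated stress response, the programme led by ATF4. Of 19 tested members 14 were called lower and 0 higher, with a median log2 fold change of -1.21 beside -0.01 over all tested genes. Of the 14, 10 kept the call under every alternative. Fgf21, a secreted metabolic hormone, went from 197.6, 213.7 and 116.9 to 25.2, 32.6 and 32.5 (5.85 times lower, log2 fold change -2.47, SE 0.27, limma adjusted p = 8.6e-05). Cth, which makes cysteine from cystathionine, went from 191.0, 244.3 and 236.5 to 63.8, 76.4 and 67.4. In both genes the 5-day libraries sat between those of 3 days and those of monoculture, which held 10.3 to 13.5 of Fgf21 and 19.7 to 25.1 of Cth. The kinase-like inhibitor gene Trib3 fell from 275.7 ± 47.2 to 97.6 ± 19.0, the pro-apoptotic factor gene Ddit3 (CHOP) from 654.1 ± 117 to 264.9 ± 17.5 and the chromatin protein gene Nupr1 from 2456 ± 144 to 926.0 ± 83.8 (SD, n = 3). Atf3 and Atf5, factors of the same family, fell 3.31 times and 1.88 times. Atf4 itself was at 1733.7, 2312.5 and 2160.7 at 3 days and 1321.7, 1463.2 and 1317.1 at 5 days, a fall of 1.51 times that passed the test (limma adjusted p = 0.043) but lost it without any 1 of 8 of the 9 libraries. The members that did not pass were Eif4ebp1, Sesn2, Vldlr, Ddit4 and Ndrg1, with log2 fold changes of -0.58, -0.84, -0.22, -0.16 and 0.42.

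Promoter sequence is shown for 4 of the genes that fell, since ATF4 with a C/EBP partner is known to bind a composite element whose core can be written TGATGNAA. The 250 bases before the RefSeq start site (GRCm38.p6) were searched on both strands. Of the 13 fallen members with a promoter entry 5 held the letters, which are found before 3.91% of 27025 genes. So did 6 of all 16 tested members with an entry, and the letters did not set the fallen members apart. On lists described below they were held by 1 of 7 fallen serine and one-carbon enzymes, Asns, and 1 of 3 fallen amino acid transporters. That transporter is Slc7a11, which is also on the ATF4 list and already counted there. Among tested aminoacyl-tRNA synthetases 3 of 12 held them. Capitals mark the matches, and each window is on the strand of its gene: Chac1 is chr2:119351018-119351087 on the plus strand, and Atf3 is chr1:191183405-191183474, Fgf21 is chr7:45615591-45615660 and Slc7a11 is chr3:50443641-50443710, all 3 on the minus strand. None of these windows overlaps a GENCODE exon.
Chac1: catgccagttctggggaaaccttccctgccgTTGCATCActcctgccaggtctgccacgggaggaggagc
Atf3: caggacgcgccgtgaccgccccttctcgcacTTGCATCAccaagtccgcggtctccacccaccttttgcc
Fgf21: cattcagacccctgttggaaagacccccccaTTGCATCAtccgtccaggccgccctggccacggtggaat
Slc7a11: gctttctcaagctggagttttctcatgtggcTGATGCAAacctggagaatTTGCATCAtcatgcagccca

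In Slc7a11, the cystine importer, the letters occur on each strand within 1 window. Its counts were low, 6.6, 11.8 and 20.9 at 3 days and 1.8, 3.7 and 0.0 at 5 days, and its call (limma adjusted p = 0.029) was lost without any 1 of 4 co-culture libraries. Chac1, whose product degrades glutathione, fell from 398.4 ± 57.1 to 165.4 ± 40.8 and kept its call throughout. A match of letters describes the window and is not evidence of binding.

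**Figure D3:**
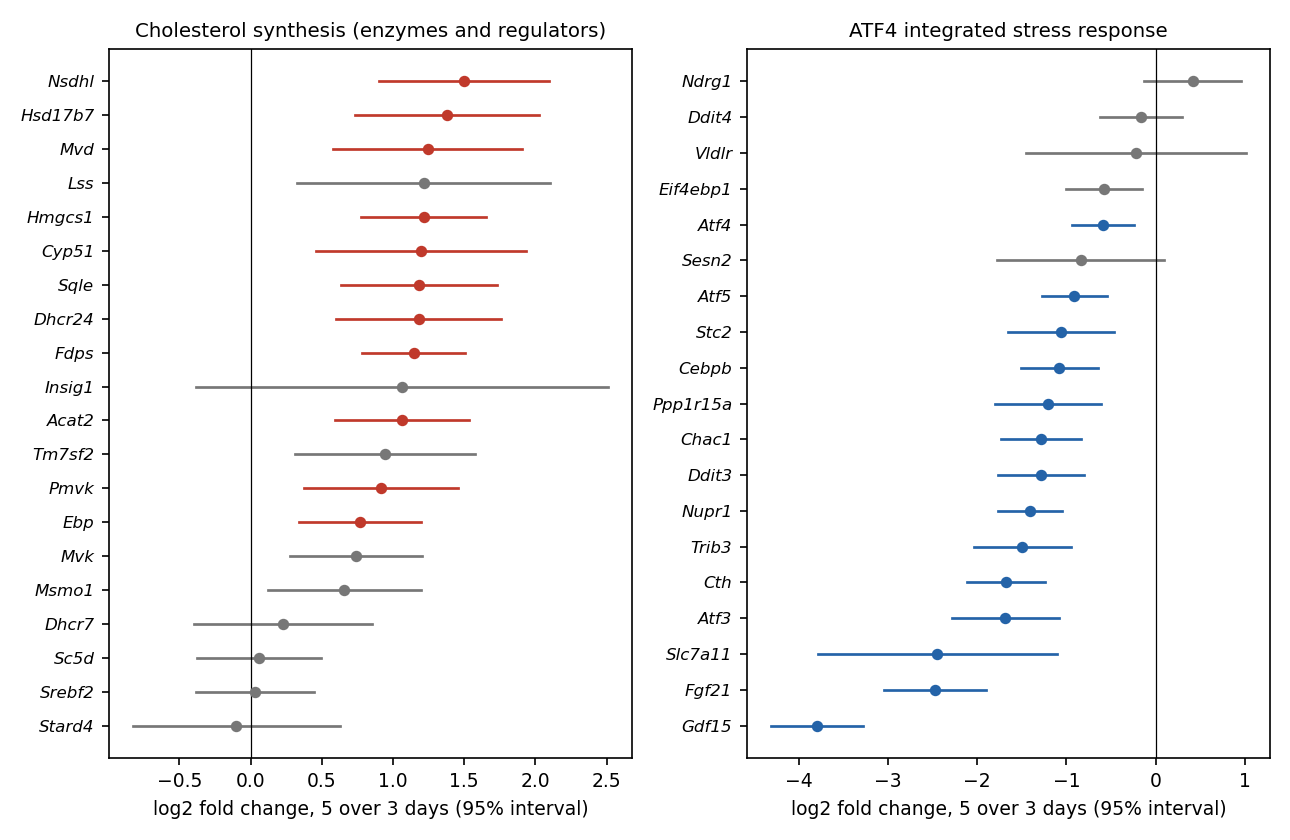
Log2 fold changes at 5 against 3 days with 95% intervals for 20 of the 23 tested members of the cholesterol synthesis list and for every tested member of the ATF4 list, red where called higher, blue where called lower and grey where not called. The ATF4 members lie almost wholly left of 0 with Gdf15 lowest, and of the cholesterol synthesis members shown only Stard4 lies left of 0.

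Genes for amino acid supply fell alongside. Of 13 tested amino acid transporters 7 were called lower and 0 higher (median log2 fold change -1.52), and all 13 had a negative change. Slc7a5, the light chain of the LAT1 importer of large neutral amino acids, went from 242.4, 235.3 and 125.2 to 62.9, 36.3 and 72.4. Its heavy chain gene Slc3a2 went from 893.4, 726.1 and 496.7 to 255.2, 225.4 and 239.7 (2.94 times lower, log2 fold change -1.51, SE 0.20, limma adjusted p = 0.00026). The 2 chains therefore fell together without overlap between days, with monoculture at 73.5 to 99.0 and 462.1 to 529.8. The arginine and lysine transporter gene Slc7a3 fell 5.12 times, the glycine transporter gene Slc6a9 4.57 times and the glutamine transporter gene Slc1a5 2.93 times. Slc7a2 fell 3.17 times. Apart from Slc7a11, each of the 7 kept its call under every alternative.

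Of 16 enzymes of serine synthesis, one-carbon metabolism and linked amino acid synthesis 8 were called lower and 0 higher (median log2 fold change -0.68). The count was 5 without the 3-day replicate 2. Asns (chromosome 6, 7675169 to 7693254, minus strand), asparagine synthetase, went from 705.8, 990.6 and 742.9 to 259.7, 258.9 and 183.5 (3.47 times lower, log2 fold change -1.79, SE 0.19, limma adjusted p = 8e-05). Monoculture held 268.7 to 288.6, so the 5-day values were near or below those of fibroblasts grown alone. Phgdh and Psat1, the first steps of serine synthesis, fell 2.77 and 3.96 times, and the mitochondrial folate enzymes Aldh1l2 and Mthfd2 fell 3.70 and 2.06 times. The aminoacyl-tRNA synthetases, which load amino acids onto tRNA, moved less: 1 of 20, Cars, was called lower, and the median log2 fold change was -0.26. That count was 0 without the 3-day replicate 2, the 5-day replicate 1 or the 5-day replicate 3, and 3 without the 3-day replicate 3.

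The chaperones of the endoplasmic reticulum, which answer the other arms of the unfolded protein response, did not fall as a group. Of 25 tested members 3 were called higher (Dnajc3, Dnajb11 and Pdia6) and 1 lower (Herpud1), with a median log2 fold change of 0.41. The higher count was 1 without the 3-day replicate 2 or any 1 of the 5-day libraries. Hspa5, the chief chaperone of this compartment, was at 1175.7, 1217.5 and 2141.2 at 3 days and 1286.6, 2196.2 and 1285.9 at 5 days. Its groups overlapped (log2 fold change 0.08, 95% interval -0.50 to 0.67). Of the 4 called members only Herpud1, a part of the protein degradation machinery of this membrane, kept its call under every alternative, and it fell 1.81 times. Among 14 cytosolic heat shock genes 1 was called higher, Hspb1, a count of 0 without any 1 of the 3-day libraries or the 5-day replicate 1 or 3 and of 2 without the monoculture replicate 1 or 3. Among 32 proteasome subunits 1 was called higher, Psmb5, a count of 0 without the 3-day replicate 2 and of 2 without the 3-day replicate 1.

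Antioxidant genes of the NRF2 programme were called lower in 5 of 19 cases and higher in 0 (median log2 fold change -0.39). The count was 3 without the 5-day replicate 1. Hmox1, heme oxygenase, went from 2466.0, 2049.4 and 2106.4 to 948.8, 663.1 and 594.3 (3.00 times lower, log2 fold change -1.61, SE 0.19, limma adjusted p = 0.00016). Gclm, a subunit of the enzyme that starts glutathione synthesis, went from 308.9, 413.5 and 382.6 to 142.0, 119.2 and 96.1, and Txnrd1, thioredoxin reductase, fell from 682.3 ± 17.2 to 364.1 ± 90.5 (SD, n = 3). For Hmox1 and Gclm the 3-day level was close to that of monoculture, at 2061.0 to 2497.0 and 345.1 to 420.2, and the 5-day level lay below both. Sqstm1, the autophagy receptor p62, fell 2.44 times and was the 1 called member of 31 lysosomal and autophagy genes. Gadd45a, a stress gene on the p53 list, fell from 1038 ± 46.2 to 347.3 ± 71.8.

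Inflammatory ligands and acute-phase genes formed the second group of falls. Of 17 tested chemokines 7 were called lower and 0 higher (median log2 fold change -0.77), and 5 of the 7 kept their call under every alternative. Cxcl1 (chromosome 5, 90891241 to 90893115, plus strand), which attracts neutrophils, went from 1127.5, 1551.0 and 2964.8 to 262.4, 534.6 and 352.1 (4.91 times lower, log2 fold change -2.23, SE 0.34, limma adjusted p = 0.00084). Cxcl2 went from 176.0, 300.7 and 399.3 to 21.6, 70.8 and 41.2, and Cxcl3 from 56.5, 72.4 and 132.2 to 9.9, 12.1 and 13.7. These 3 neighbours share a receptor, and in each the highest 5-day library was below the lowest 3-day library. Cxcl5 fell 3.99 times, and Ccl11, the eosinophil attractant eotaxin, fell from 109.3 ± 31.0 to 15.5 ± 7.20 (SD, n = 3). Cxcl14 and Cxcl12 were also called, 2.36 and 2.20 times lower, but not under every alternative. The abundant monocyte attractant Ccl2 stood at 5494.9, 5909.4 and 8816.5 at 3 days and 2938.0, 4031.9 and 4846.4 at 5 days. It did not pass (limma adjusted p = 0.11), and neither did Ccl7.

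NF-kappa B factors are known to bind sites of the form GGG, any 2 bases, TTTCC before inflammatory genes, so the windows of the 3 clustered chemokines are shown. Of the 5 fallen chemokines with a promoter entry 3 held these letters in the 250 bases before the start, against 1.65% of 27025 genes. So did 4 of all 11 tested chemokines with an entry, these 3 and Ccl20, which was not called. The other fallen inflammatory genes seldom held them: 0 of 4 on the NF-kappa B list, 0 of 3 interleukins and related ligands, and 1 of 5 acute-phase genes. Among all tested members with an entry those lists had 3 of 18, 3 of 14 and 2 of 10. The letters were therefore also found before genes that were not called. Capitals mark the matches, all windows are on the plus strand of GRCm38.p6 and none overlaps a GENCODE exon: Cxcl1 is chr5:90891126-90891195, Cxcl2 is chr5:90903772-90903841 and Cxcl3 is chr5:90785998-90786067.
Cxcl1: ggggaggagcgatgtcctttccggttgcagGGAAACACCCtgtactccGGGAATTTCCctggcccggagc
Cxcl2: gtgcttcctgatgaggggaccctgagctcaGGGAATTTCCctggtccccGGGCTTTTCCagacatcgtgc
Cxcl3: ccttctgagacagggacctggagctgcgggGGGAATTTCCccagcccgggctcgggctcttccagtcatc

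Cxcl1 and Cxcl2 carried 2 matches each within the window shown. Genes for NF-kappa B subunits, its inhibitors and its targets were called lower in 5 of 22 cases and higher in 0, with a median log2 fold change of -0.30. The count was 2 without the 3-day replicate 2 and 3 without the 5-day replicate 2. The called members were targets: Saa3, Vcam1, Lcn2, Birc2 and Birc3, the last 3 not under every alternative. Vcam1, an adhesion molecule for leukocytes, went from 89.7, 146.2 and 185.0 to 20.7, 34.5 and 30.0 (4.94 times lower, limma adjusted p = 0.00016). The subunit genes Nfkb1 and Rela overlapped between days, with log2 fold changes of -0.01 and 0.21.

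Of 21 interleukins, colony-stimulating factors and TNF-family ligands 5 were called lower (Csf2, Tnfsf11, Tslp, Il33 and Clcf1) and 0 higher, a count of 2 without the 3-day replicate 2. Tslp, a cytokine that acts on dendritic cells, went from 132.8, 194.2 and 275.5 to 44.0, 47.5 and 43.7 (4.46 times lower, log2 fold change -2.07, SE 0.31, limma adjusted p = 0.00079). Tnfsf11 was at 3.3, 7.0 and 4.2 at 3 days and 0.0 in each 5-day library, too low for a fold. Il6 was at 597.8, 781.7 and 1010.1 and then 218.3, 425.6 and 548.1, without overlap, and did not pass (limma adjusted p = 0.07). Lif did not pass either, at adjusted p = 0.072.

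Acute-phase and complement genes were called lower in 8 of 17 cases and higher in 0 (median log2 fold change -1.18). The count depended on single libraries: it was 3 without the 3-day replicate 2 or the 5-day replicate 2, and 5 without the 3-day replicate 3 or the 5-day replicate 1. Saa3 (chromosome 7, 46711998 to 46715700, minus strand), a serum amyloid A protein made at sites of inflammation, went from 5637.7, 16452.1 and 14317.6 to 404.3, 1286.2 and 1370.8 (11.9 times lower, log2 fold change -3.62, SE 0.46, limma adjusted p = 0.00022). The 3-day libraries differed widely among themselves, yet the lowest of them was far above the highest 5-day library, and monoculture held 362.5 to 1060.9. Ptx3, a pattern-recognition pentraxin, went from 184.3, 406.5 and 370.1 to 16.2, 32.6 and 30.0, while monoculture held 410.7 to 1219.0. C1s1, a protease of the classical complement pathway, fell 3.09 times. C3 was at 126.2, 288.2 and 271.3 and then 56.6, 129.5 and 113.6, and did not pass (limma adjusted p = 0.059). Beside these falls stand the macrophage and monocyte markers, of which 8 of 9 tested had negative changes and whose sums overlapped between days (133 to 414 against 85.9 to 185), and the 3 endothelial markers, all with negative changes. Their part in these results was not tested. Few genes of the interferon response, another branch of innate immunity, passed: 1 of 40, the nucleic acid sensor Zbp1, was called lower and 0 higher, with a median log2 fold change of -0.05, and 2 were lower without the 3-day replicate 3 or the monoculture replicate 1.

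The clearest group of rises was cholesterol synthesis. Of 23 tested members 13 were called higher and 0 lower, with a median log2 fold change of 1.06. The count was 6 without the 5-day replicate 1, 7 without the 3-day replicate 2, and 8 without the 5-day replicate 2 or 3. Hmgcs1, which condenses the first intermediates of the pathway, went from 119.6, 162.2 and 136.3 to 293.8, 309.2 and 368.3 (2.32 times higher, log2 fold change 1.21, SE 0.21, limma adjusted p = 0.0023). Fdps (chromosome 3, 89093588 to 89101959, minus strand), which makes farnesyl diphosphate, went from 303.9, 254.1 and 250.4 to 627.1, 614.7 and 545.6 (2.21 times higher, log2 fold change 1.14, SE 0.17, limma adjusted p = 0.00079). In both genes every 5-day library was above every 3-day library and every monoculture library. Acat2, another early enzyme, rose 2.07 times and Nsdhl, a late sterol enzyme, rose 2.95 times. Of the 13 called members 6 kept their call under every alternative, these 4 among them. Srebf2, the gene of SREBP2 itself, was level at 144.5, 123.2 and 100.2 against 112.3, 127.6 and 132.3 (log2 fold change 0.03, 95% interval -0.39 to 0.44).

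Hmgcs1 is shown because its promoter is a textbook sterol-regulated one, and the window chr13:119690183-119690252 on the plus strand (GRCm38.p6) holds the sterol regulatory letters TCACNCCAC in capitals.
Hmgcs1: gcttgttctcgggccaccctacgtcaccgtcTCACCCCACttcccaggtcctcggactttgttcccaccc

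Of the 8 risen members with a promoter entry 1, Hmgcs1, held those letters, which are found before 1.23% of 27025 genes. The CCAAT letters bound by NF-Y, a known partner of SREBP factors, were held by 7 of the 8, beside 37.5% of all genes, and by 15 of all 16 tested members with an entry, so they did not set the risen members apart.

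Of 15 genes of fatty acid synthesis and desaturation 3 were called higher and 0 lower (median log2 fold change 0.37), a count of 1 without the 3-day replicate 2 or the 5-day replicate 3. Scd2, a desaturase that makes monounsaturated fatty acids, went from 743.9, 543.7 and 631.6 to 1493.3, 2173.8 and 1490.6 (2.69 times higher, log2 fold change 1.41, SE 0.19, limma adjusted p = 0.00036). Acsl3 and Fads2 rose too, and each lost its call under 4 alternatives. Plin2, which coats lipid droplets, rose from 327.5 ± 10.6 to 773.3 ± 109 (SD, n = 3).

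Some genes of glycolysis also rose. Of 17 glycolysis and lactate export genes 5 were called higher and 0 lower (median log2 fold change 0.72), and the count was 2 without the 3-day replicate 2 or 3 or the 5-day replicate 1 or 2. Slc16a3 (chromosome 11, 120948480 to 120960868, plus strand), the lactate exporter MCT4, went from 491.5, 445.5 and 360.3 to 1395.3, 1348.6 and 1167.3 (3.01 times higher, log2 fold change 1.60, SE 0.17, limma adjusted p = 8e-05). Ldha, lactate dehydrogenase A, went from 1076.1, 1062.3 and 941.9 to 1607.4, 1864.6 and 1761.5. Both rose without overlap, but monoculture held 2075.3 to 2401.0 of Ldha, above both days, and 747.5 to 785.9 of Slc16a3, between them. The other called members were Tpi1, Pkm and Hk1, at 1.86, 1.66 and 1.66 times, and none of these 3 kept its call under every alternative.

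Of 19 hypoxia and HIF genes 6 were called higher and 1 lower. Egln1 (chromosome 8, 124908587 to 124949324, minus strand), the oxygen-sensing prolyl hydroxylase PHD2, went from 46.5, 49.4 and 80.7 to 212.0, 278.5 and 213.5 (3.99 times higher, log2 fold change 2.01, SE 0.23, limma adjusted p = 0.00015). Bnip3, a mitophagy receptor, went from 49.8, 84.2 and 123.8 to 240.8, 588.6 and 206.0, and Ankrd37 from 3.3, 4.2 and 1.4 to 18.0, 16.8 and 13.7. In these 3 genes every 5-day library was above every 3-day library. Monoculture held 154.9 to 235.5 of Egln1 and 162.6 to 340.8 of Bnip3, and in each gene 2 of the 3 5-day libraries lay within that range and the 5-day replicate 2 above it. Adm, the vasodilator peptide adrenomedullin and a gene often induced with them, went the other way, from 112.9, 77.3 and 90.4 to 24.3, 33.5 and 25.0 (3.39 times lower, limma adjusted p = 0.0003). Vegfa, another much-used hypoxia gene, was at 1901.4, 1283.6 and 1236.8 and then 939.8, 1013.3 and 1159.8, and did not pass (log2 fold change -0.48, limma adjusted p = 0.13). Hif1a overlapped between days. The list therefore did not move as a whole, and its median log2 fold change was 0.27.

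The core letters of a hypoxia response element, ACGTG, were searched in the same way, and the windows of a mitophagy gene and a glycolysis gene that rose are shown. They are chr7:138909578-138909647 on the minus strand for Bnip3 and chr7:46845723-46845792 on the plus strand for Ldha (GRCm38.p6), outside GENCODE exons. Capitals mark matches, and CACGTG holds the letters on both strands.
Bnip3: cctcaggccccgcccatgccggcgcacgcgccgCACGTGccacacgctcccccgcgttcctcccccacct
Ldha: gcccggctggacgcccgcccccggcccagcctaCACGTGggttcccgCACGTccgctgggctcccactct

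These short letters are common: 18.5% of 27025 genes held them, beside 3 of 5 risen hypoxia members and 3 of 5 risen glycolysis members with a promoter entry. Of all tested members with an entry 10 of 16 on the hypoxia list and 10 of 17 on the glycolysis list held them. The letters therefore did not set the risen members apart.

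Most respiratory chain genes did not pass the test, but the share called higher was above the 3.20% of all tested genes. Of 35 complex I subunits 3 (8.57%) were called higher and 0 lower, and 30 had a positive change (median log2 fold change 0.38). In 13 of the 35 every 5-day library was above every 3-day library, which held for 11.7% of all tested genes. The count was 1 without the 5-day replicate 2. Of 38 subunits of complexes II to V 3 (7.89%) were called higher and 0 lower, with 36 positive changes (median 0.38). The count called higher ranged from 0 without the 3-day replicate 1 to 6 without the 3-day replicate 3. In 14 of the 38 every 5-day library was above every 3-day library. Ndufb10 went from 398.5, 465.7 and 417.4 to 813.1, 802.8 and 780.3 (1.87 times higher, log2 fold change 0.90, SE 0.16, limma adjusted p = 0.0025) and was the 1 subunit to keep its call under every alternative. Of 73 cytosolic ribosomal proteins 1, Rpl5, was called higher (median 0.07), and 0 were called without the 3-day replicate 1, the 5-day replicate 1 or 2 or the monoculture replicate 3. Of 50 mitochondrial ribosomal proteins 4 were called higher (median 0.03), a count of 1 without any of those same 4 libraries and of 2 without the 3-day replicate 2.

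**Figure D4:**
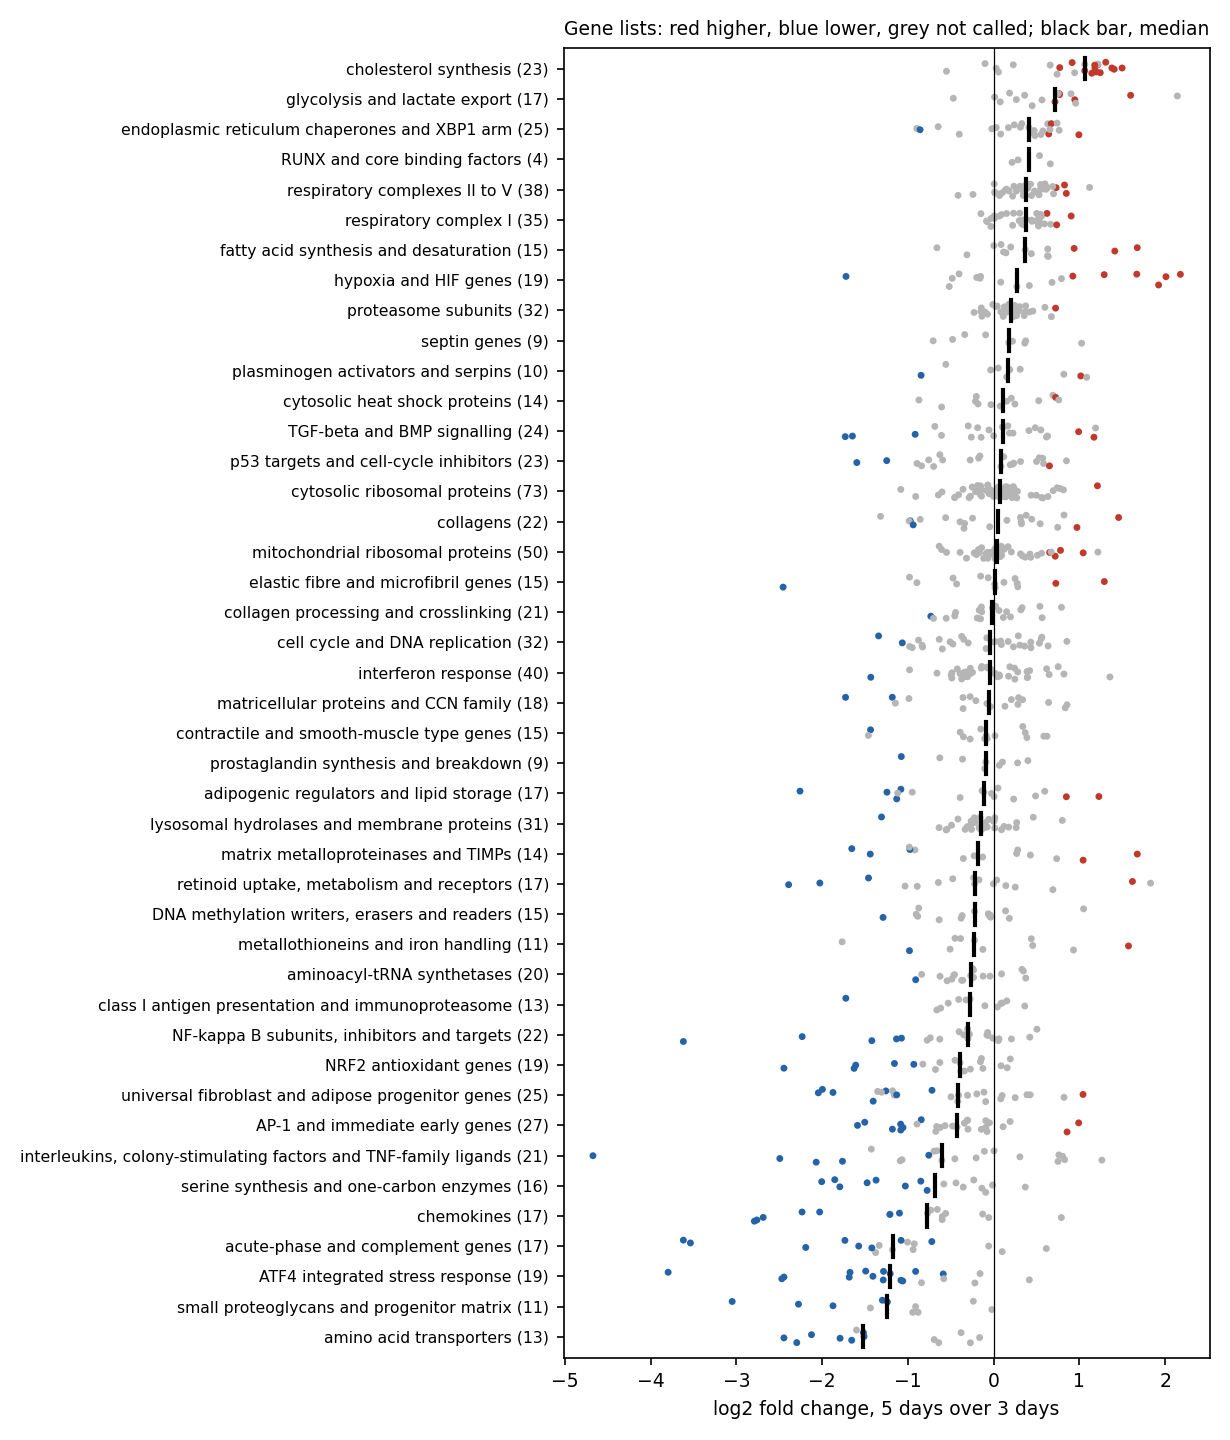
Log2 fold changes at 5 against 3 days of the tested members of each gene list, ordered by the list median (black bar), with the number of tested members in brackets. Amino acid transporters, small proteoglycans and the ATF4 list have the lowest medians, at -1.52, -1.24 and -1.21, and cholesterol synthesis and glycolysis the highest, at 1.06 and 0.72.

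The matrix programme changed in part. Of 11 small proteoglycan and progenitor matrix genes 5 were called lower and 0 higher (median log2 fold change -1.24). Dcn (chromosome 10, 97479609 to 97518143, plus strand), the collagen-binding proteoglycan decorin, went from 2268.4, 3743.7 and 3767.6 to 1013.5, 1648.5 and 1287.1 (2.48 times lower, log2 fold change -1.30, SE 0.25, limma adjusted p = 0.006). Podn and Dpt went from 41.7 ± 9.64 to 8.13 ± 3.88 and from 35.9 ± 9.68 to 8.90 ± 1.35 (SD, n = 3). Monoculture held 353.4 to 464.8 of Podn and 245.1 to 345.6 of Dpt, so both were already low at 3 days, whereas Dcn at 3 days was within the monoculture range of 2557.3 to 4608.8 in 2 of 3 libraries.

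Universal fibroblast and adipose progenitor genes were called lower in 7 of 25 cases and higher in 1, Has2. The lower count was 4 without the 3-day replicate 2, the 5-day replicate 1 or the 5-day replicate 2. The higher count was 0 without the 3-day replicate 2 or the 5-day replicate 2 or 3. It was 2 without the 3-day replicate 1 or 3 or the monoculture replicate 2. Ly6a, which encodes the progenitor surface marker SCA-1, went from 91.3, 123.2 and 100.2 to 35.9, 32.6 and 13.7. Pdgfra, the growth factor receptor that defines many fibroblasts, went from 46.5, 47.3 and 61.2 to 18.0, 22.4 and 22.5 (2.46 times lower, limma adjusted p = 0.0065). Both were without overlap and below monoculture, at 617.7 to 1253.1 and 126.9 to 234.6. Igfbp5 fell 2.69 times.

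Collagens had no common direction: 2 of 22 were higher (Col5a3 and Col27a1), 2 lower (Col6a1 and Col12a1), and the median was 0.05; the higher count was 1 without the 3-day or the 5-day replicate 2. Col5a3, a fibril-regulating chain, went from 577.9, 520.0 and 509.2 to 1468.1, 1538.6 and 1407.0 (2.75 times higher, log2 fold change 1.46, SE 0.16, limma adjusted p = 8.6e-05). Col6a1 fell 1.99 times and Col12a1 1.90 times. The main fibrillar chain Col1a1 overlapped, with a log2 fold change of -0.05 (95% interval -0.58 to 0.49), and Col3a1 lay lower in every 5-day library without passing (limma adjusted p = 0.052).

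Matrix proteases and their inhibitors split as well. Mmp9 (chromosome 2, 164940780 to 164955850, plus strand), gelatinase B, went from 3374.3, 4221.3 and 3801.0 to 1274.9, 1397.1 and 1521.8 (2.72 times lower, log2 fold change -1.44, SE 0.17, limma adjusted p = 0.00015). Even so it stayed far above the 44.6 to 56.6 of monoculture. Timp3, an inhibitor of such proteases, went from 3299.6, 3209.8 and 4936.3 to 6353.2, 8587.3 and 8395.7 (2.04 times higher, limma adjusted p = 0.0066). Of 14 genes on this list 2 were called higher, Timp3 and Mmp10, and 3 lower, Mmp9, Mmp11 and Mmp23, and of these only Timp3 and Mmp9 kept the call under every alternative. Plat, the tissue plasminogen activator, rose 2.03 times.

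Contractile genes showed 1 call among 15: Tagln, an actin-binding protein of smooth muscle, went from 7733.4, 3819.6 and 3302.9 to 1424.1, 1652.3 and 2092.4 (2.87 times lower, limma adjusted p = 0.0053). Acta2, the smooth muscle actin used to mark myofibroblasts, was low and overlapped, at 66.4, 37.6 and 73.7 against 55.7, 93.1 and 77.4 (log2 fold change 0.37, 95% interval -0.20 to 0.93). Among 24 TGF-beta and BMP genes, Tgfbr1, the signalling receptor, rose 2.24 times and Tgfbr3, a co-receptor, fell 3.33 times. Thbs2 and Wisp2, matricellular proteins, fell 2.28 and 3.44 times.

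Immediate early genes were called lower in 7 of 27 cases and higher in 2. Egr1 went from 788.8, 1288.5 and 1217.4 to 426.8, 639.9 and 500.6, and Nr4a1, an orphan nuclear receptor, from 911.7, 1070.6 and 741.6 to 354.0, 530.9 and 402.0 (2.12 times lower, limma adjusted p = 0.0032). Both were already below monoculture at 3 days. Fos and Jun did not pass, at log2 fold changes of -0.62 and -0.48. The higher count rested on Klf2 and Klf6, and it was 0 or 1 without any 1 of the 6 co-culture libraries.

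Retinoid genes went both ways. Crabp1, which carries retinoic acid in the cytosol, went from 451.7, 523.5 and 562.1 to 71.0, 109.9 and 114.9 (5.20 times lower, log2 fold change -2.39, SE 0.43, limma adjusted p = 0.0032). Stra6, the membrane receptor for vitamin A uptake, went from 78.0, 67.5 and 41.7 to 231.8, 183.5 and 154.8, a call lost without the 5-day replicate 1. Monoculture held at most 1.2 of Stra6. Dnmt3l was the 1 called member of 15 DNA methylation genes (2.53 times lower, a call lost without the 3-day replicate 2 or the 5-day replicate 3). In the cell cycle list 2 of 32 were called lower, Ube2c and Cenpa, and none of 9 septins was called.

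**Figure D5:**
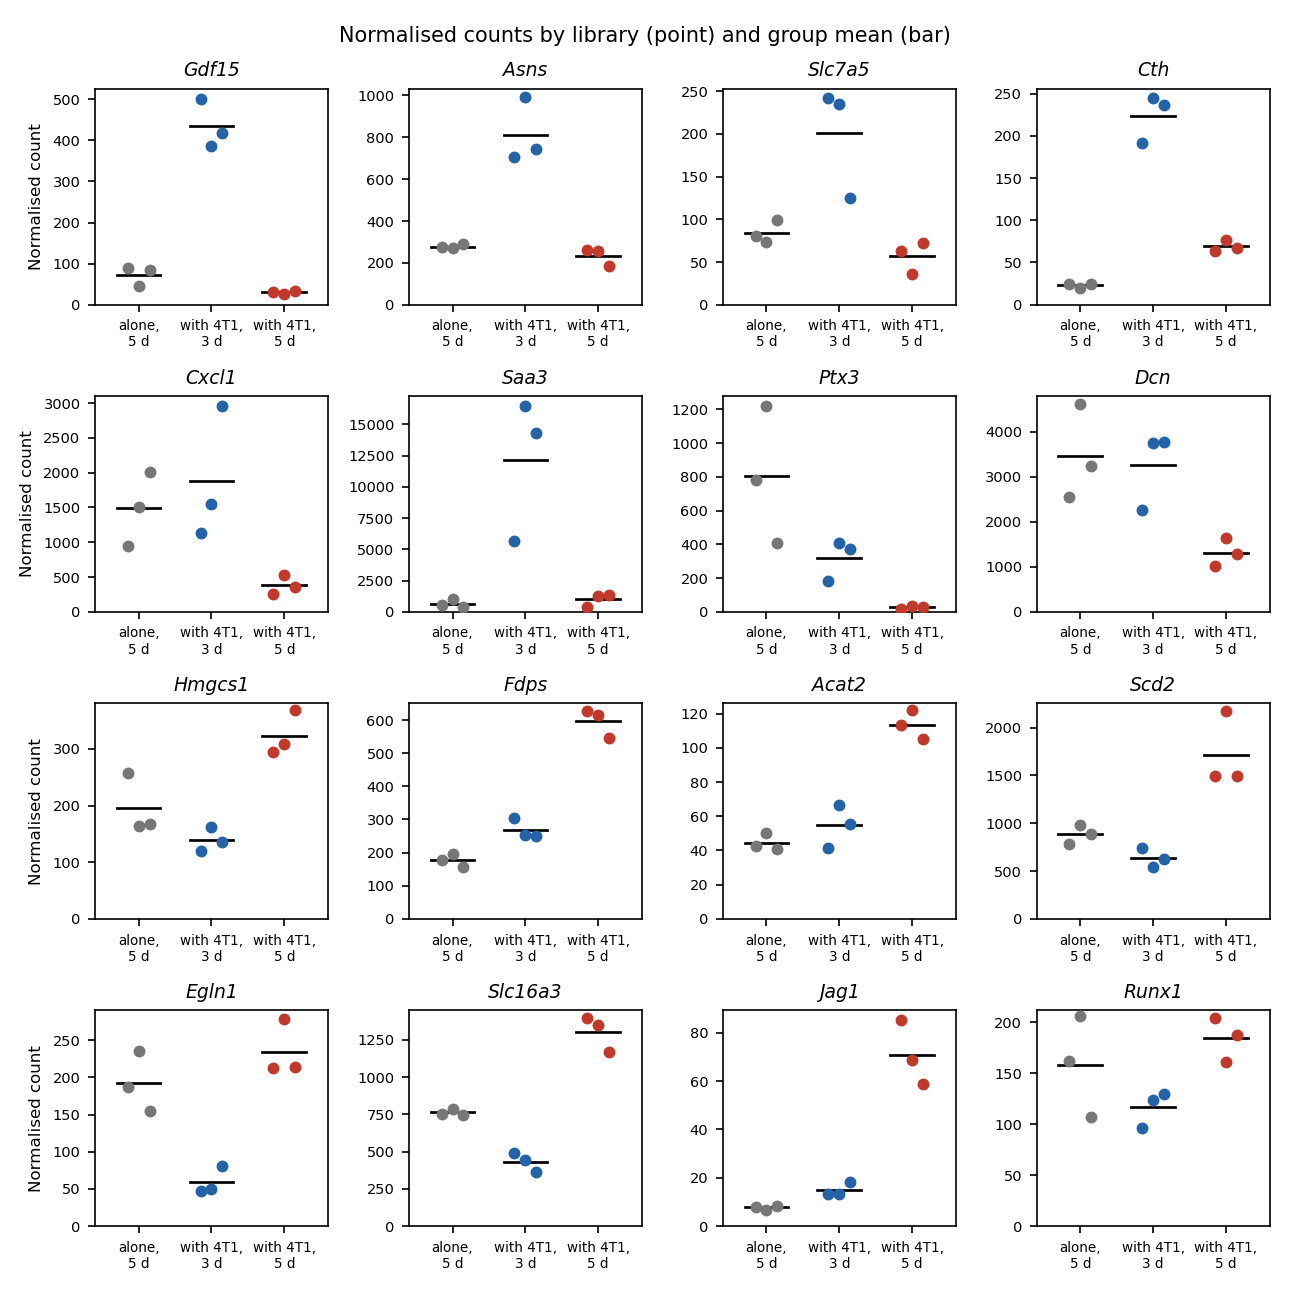
Normalised counts of 16 genes in each library, with group means as bars, for fibroblasts grown alone for 5 days and with 4T1 cells for 3 or 5 days. Gdf15, Asns, Slc7a5, Cth and Saa3 are highest at 3 days of co-culture, Hmgcs1, Fdps, Acat2, Scd2, Slc16a3 and Jag1 are highest at 5 days, and Runx1 overlaps between monoculture and both co-cultures.

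The title of the series names RUNX1, a transcription factor of the core binding factor family. Runx1 was at 96.3, 123.9 and 129.4 at 3 days and 204.0, 161.1 and 187.3 at 5 days, so the 5-day libraries were all higher. Its log2 fold change of 0.66 did not pass over all genes (limma adjusted p = 0.096), and in an exact permutation test (two-sided) it reached p = 0.1, the lowest value possible with 3 against 3 libraries. Leaving out each library in turn gave 0.53 to 0.75. Runx2 (exact permutation p = 0.3) and the partner subunit gene Cbfb (exact permutation p = 0.7) overlapped between days, as did Pdpn (exact permutation p = 0.8).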

How the data were processed

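Libraries of 3′ ends from 9 samples (3 groups of 3) went through bcl2fastq, STAR 2.4.2a (build mm10) and HTSeq, the tools that the submitters' processing notes list. Annotation and strand setting are not given in the sources used here, so overlapping, antisense and near-identical genes (tubulins, class I antigen genes, Serpina3 genes, Gapdh) are uncertain. The authors deposited normalised read counts, a signal in which each library was scaled by its own factor. Low values were whole multiples of 1 read, so whole reads were recovered (99.8% to 100% of values whole, tolerance 0.051), 1048471 to 3567326 per library, and the intervals they allow cover counting error only. The column of the 5-day replicate 2 names no carcinoma cells and was assigned because the other 8 columns match every other sample. Of 11931 genes, 18 carry date-like names and 10639 that reached 5 in 3 or more libraries were tested.

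The test was limma 3.58.1 in R 4.3.3 (eBayes with trend, two-sided) on log2(value + 1), with 9 libraries and a mean per group. Fold changes on this scale understate low genes, and times higher or lower are ratios of group means. Members, the 43 gene lists and 11 marker lists were chosen with earlier results of these data known. Named genes were Runx1, Runx2, Cbfb and Pdpn, the 12 largest rises and falls without overlap and with a mean of at least 20, up to 4 called members per list by adjusted p and the 2 highest markers per list. Other list members named were chosen after their values were seen, and some genes the rule took are not reported here. A call was kept under every alternative where it held in direction and threshold under all 19 that gave a value: pseudocounts 0.5 and 5, testing every gene, a filter on means under 20, TMM, quantile normalization, a replicate block, co-cultures only, count tests of the recovered reads (edgeR 4.0.16, DESeq2 1.42.0), and omission of 1 library at a time. The scripts were tested on simulated data. Positions are GENCODE M21 (mm10) and promoters RefSeq GRCm38.p6.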

Additional observations from a re-analysis of the deposited data

How the results depend on the processing

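Of 213 called genes checked, 114 kept their call under every one of the 19 alternatives that gave them a value (19 of the 213 had none with the filter on means), 99 lost it under at least 1, and 0 reversed. Genes called higher numbered 323 and 375 with pseudocounts of 0.5 and 5, 311 with edgeR and 374 with DESeq2, and genes called lower 385, 416, 366 and 364. Leaving out each library gave 144 to 343 higher and 179 to 396 lower, and for members of all gene lists 29 to 60 higher and 68 to 110 lower. The share of calls that were higher was 46.3%, and 34.7% without the 5-day replicate 2, which also removes the column assigned by elimination. Cbfb, uncalled, changed sign without the 3-day replicate 1 or the 5-day replicate 2 (log2 fold changes from -0.070 to 0.60 over the libraries left out), and so did Pdpn without the 3-day replicate 2 or the 5-day replicate 2 (-0.24 to 0.14). Uncalled Col1a1 (-0.18 to 0.15), Cd68 (-0.74 to 0.021), Fabp4 (-0.60 to 0.38) and the septin gene listed as 5-Sep (-0.21 to 0.00058) also changed sign without single libraries, and Fabp4 with quantile normalization (0.034). Runx2 kept its direction, at 0.14 to 0.44. Same-numbered 3-day and 5-day libraries correlated in their deviations from group means at 0.17, -0.11 and -0.06 for replicates 1, 2 and 3. Only those of replicate 1 correlated best with their own number. Deviations from a mean of 3 libraries constrain one another, so these values cannot decide whether the numbers pair the samples. With a replicate block 383 genes were higher and 444 lower. The cause of these differences was not tested. Depth limits the genes at a few reads per library, where no fold is given.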

Other observations

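Some gene families outside the lists were chosen after their values were seen and are given as description. Of 10 tested alpha and beta tubulins, the subunits of microtubules, 8 were called higher at 5 days and 0 lower, with a median log2 fold change of 1.26. Tuba1a went from 1155.8, 630.7 and 861.2 to 2346.8, 2819.3 and 1921.3, and Tubb6 from 692.5, 675.9 and 651.1 to 2182.4, 2307.0 and 1566.8. Monoculture held 1926.0 to 1972.5 of Tuba1a, above every 3-day library, and 477.2 to 748.1 of Tubb6, near the 3-day level. The calls of Tubb2b, Tubb3 and Tubb4b were lost under 1, 10 and 12 alternatives. The intermediate filament gene Vim went from 4900.4, 4555.4 and 4954.3 to 12833.0, 11418.7 and 8870.1 (limma adjusted p = 0.0015), so several cytoskeletal genes were higher in every 5-day library. Tubulin genes are near-identical in places, and how their shared reads were counted is not given in the sources used here. Of 9 annexins 3 were called higher, and Anxa2 kept its call under every alternative.

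Secreted signals changed beside Jag1. Of 11 Wnt ligands 4 were called higher and 0 lower, where 3.20% of all tested genes were called higher. Changes were positive in 7 of the 11, with a median log2 fold change of 0.24. Wnt10a, Wnt16 and Wnt5b were lower in every 5-day library without passing the test. Wnt2 went from 36.5, 27.1 and 29.2 to 115.9, 118.3 and 123.6, and Wnt9a from 83.0, 73.1 and 72.3 to 220.1, 259.9 and 274.7. Wnt2 and Wnt9a kept their calls under every alternative, while Wnt10b and Wnt2b lost theirs under 11 and 5. Heyl, a known target of Notch signalling, went from 3.3, 0.7 and 2.8 to 35.9, 22.4 and 17.5, the other called gene among 10 Notch genes with Jag1. Hes1 overlapped between days, at a log2 fold change of 0.11. Vegfc, a growth factor for lymphatic vessels, went from 28.2, 26.5 and 43.1 to 81.8, 101.5 and 114.9 while Vegfa did not pass. Sfrp1, an antagonist of Wnt ligands, went from 544.7, 1135.4 and 1122.8 to 142.9, 392.1 and 197.3, below the 4498.4 to 6671.8 of monoculture, and the extracellular superoxide dismutase gene Sod3 from 494.9, 1028.2 and 844.5 to 117.7, 302.7 and 208.5.

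Among granzyme and mast cell protease genes 2 of 6 were called lower: Gzme went from 1220.5, 985.7 and 793.0 to 299.2, 350.2 and 208.5 and Mcpt8, whose call was lost under 4 alternatives, from 553.0, 723.3 and 531.5 to 145.6, 217.0 and 143.6. Monocultures, which held no carcinoma cells, also carried both, at 331.2 to 1107.4 and 103.3 to 685.1. Gapdh was at 746.6 in the 5-day replicate 1 and between 10.5 and 40.0 in the other 8 libraries. Serpina3h rose from 685.8, 586.1 and 694.2 to 1251.6, 1497.7 and 1250.9 while its near-identical neighbour Serpina3n was called lower, calls lost under 2 and 10 alternatives, and how reads shared by the pair were counted is not given in the sources used here.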
